A study of Homo sapiens with 18 samples.

Results

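The nuclear-encoded subunits of the mitochondrial respiratory chain and of ATP synthase were followed in DCIS.COM and SUM225 cells grown in mouse mammary ducts. Members were every gene whose single symbol in the deposited gene tables began with NDUFA, NDUFB, NDUFC, NDUFS, NDUFV, SDHA to SDHD, UQCR, COX4 to COX8 or ATP5. This gave 91 of 19163 named genes, with 167 of 54613 probe sets. Each gene was read on the brightest of its probe sets, by the mean of the 18 arrays. Of the members, 72 encode subunits, namely 35 of complex I, 3 of complex II, 8 of complex III, 11 of complex IV and 15 of complex V. The others are 7 tissue isoforms or paralogs of complex IV genes, 7 assembly factors and 5 symbols that name no subunit and were counted apart. These 5 are ATP5S (coupling factor B), ATP5SL, COX4NB and the pseudogenes SDHAP1 and SDHAP2. ATP5SL is also a complex I assembly factor but is not among the 7. SDHA, NDUFS5 and NDUFA13 stood only in names shared with other genes and are not members.

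Both are established human lines used as models of ductal carcinoma in situ (DCIS). DCIS.COM is basal-like and lacks the estrogen receptor, the progesterone receptor and HER2, whereas SUM225 overexpresses HER2. Untreated cells were injected into the mammary ducts of female immunodeficient NSG mice aged 8 to 10 weeks, the mouse intraductal (MIND) model, and the glands were taken 2, 6 or 10 weeks later. Human cells were separated from mouse cells with magnetic beads against EpCAM, cells of 5 mice were pooled for each replicate, and RNA was measured on Affymetrix human arrays, with 3 arrays in each of the 6 groups of line and week. Each group thus describes 1 line, in a host with no mature lymphocytes of its own.

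The respiratory chain passes electrons from NADH (complex I) and succinate (complex II) through complex III to oxygen at complex IV, and complexes I, III and IV pump protons across the inner mitochondrial membrane. ATP synthase, or complex V, uses the proton gradient to make ATP. All members are nuclear genes, so the chain's core subunits that are encoded by mitochondrial DNA are outside the set. The accessory subunits stabilize the complexes, and many respiratory genes are known targets of the transcription factors NRF1 and GABP, an ETS factor, and of the coactivator PGC-1α.

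Values are log2 levels after robust multi-array averaging (RMA), so that a difference of 1 is a doubling. A probe set was called when limma gave an adjusted p (Benjamini-Hochberg over all 54613 probe sets) under 0.05. With 3 arrays against 3, an exact permutation test cannot go below p = 0.1, and every pair of groups whose arrays do not overlap has that two-sided p.

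The 2-week samples of SUM225 differed among themselves. Correlations between replicates over all probe sets were 0.904, 0.76 and 0.926 there and 0.966 to 0.994 in the other groups. EPCAM, the gene of the antigen used for sorting, was 12.73, 11.72 and 8.59 in their replicates 1, 2 and 3, and 12.11 to 13.04 on all other arrays. The median of 12 leukocyte markers was 5.97, 6.39 and 6.86 in these replicates, against 5.40 to 5.61 in later SUM225 samples. In DCIS.COM it was 6.32, 6.19 and 6.11 at 2 weeks and 5.54 to 5.96 later. Between 2 and 6 weeks 7 of the 12 markers fell and 1 rose in DCIS.COM, and 8 fell in SUM225. Among all named genes, 20% were called lower in DCIS.COM and 26.5% in SUM225. Marker lists of other tissues were also higher at 2 weeks in SUM225. Group means of their array medians went from 6.5 to 5.42 at 6 weeks (erythroid), 6.32 to 5.57 (endothelial) and 6.54 to 5.68 (adipocyte). Muscle went from 5.4 to 4.47 and fibroblast from 7.44 to 6.94. Named genes with a mean of at least 10 went from 9.68 to 11.26. In DCIS.COM these marker lists were lower too, except muscle (4.92 and 4.98). PTPRC, the defining leukocyte marker, ranged from 3.94 to 5.42 over all arrays. The differences of single probe sets between 6 and 2 weeks had a median of -0.15 in DCIS.COM and -0.39 in SUM225 over all 54613. Fewer tumor cells and less RNA per cell cannot be told apart in these samples. HER2 (ERBB2) was 11.32 to 12.68 on all SUM225 arrays but replicate 3 of 2 weeks, where it was 9.21, and 8.24 to 9.31 in DCIS.COM, so that the library labelled replicate 3 of 2-week SUM225 lay in the range of DCIS.COM for this gene.

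In DCIS.COM xenografts, subunits of each of complexes I to V rose between weeks 2 and 6. Of the 72 subunits, 49 (68.1%) rose and 2 fell, and the median difference was 0.76, with a middle range of 0.55 to 0.97. Over all members, 53 rose and 4 fell. Of all named genes, 22.6% rose and 20% fell, with a median of -0.14. The gene tables that supply the names list probe sets called by the authors between 6 and 2 weeks in at least 1 line, so that these shares describe such genes, members and background alike. The median of the 72 subunits was 10.24, 9.53 and 9.53 on the 2-week arrays, 10.76, 10.33 and 10.77 on the 6-week arrays, and 10.21, 10.68 and 10.68 on the 10-week arrays. Replicate 1 of 2 weeks and replicate 1 of 10 weeks thus lay close to each other. EPCAM was 12.68, 12.11 and 12.40 at 2 weeks and 12.66, 12.80 and 12.84 at 6 weeks in this line, with overlap, and the leukocyte median was lower on every 6-week than on every 2-week array. Their part in the result was not tested. Without 1 array the count of risen subunits ranged from 10, without replicate 3 of 6 weeks, to 68, without replicate 1 of 2 weeks. It was 22 and 16 without replicates 2 and 3 of 2 weeks, and 14 without replicate 1 of 6 weeks. Calls over all 54613 probe sets were 17868 with all arrays. They were 3705 without replicate 3 of 6 weeks and 29098 without replicate 1 of 2 weeks. The median difference of the subunits stayed between 0.65 and 1.0. With all 18 arrays in 1 fit, where the wide spread of the 2-week SUM225 samples enters, 7 subunits passed and the median was the same.

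**Figure D1:**
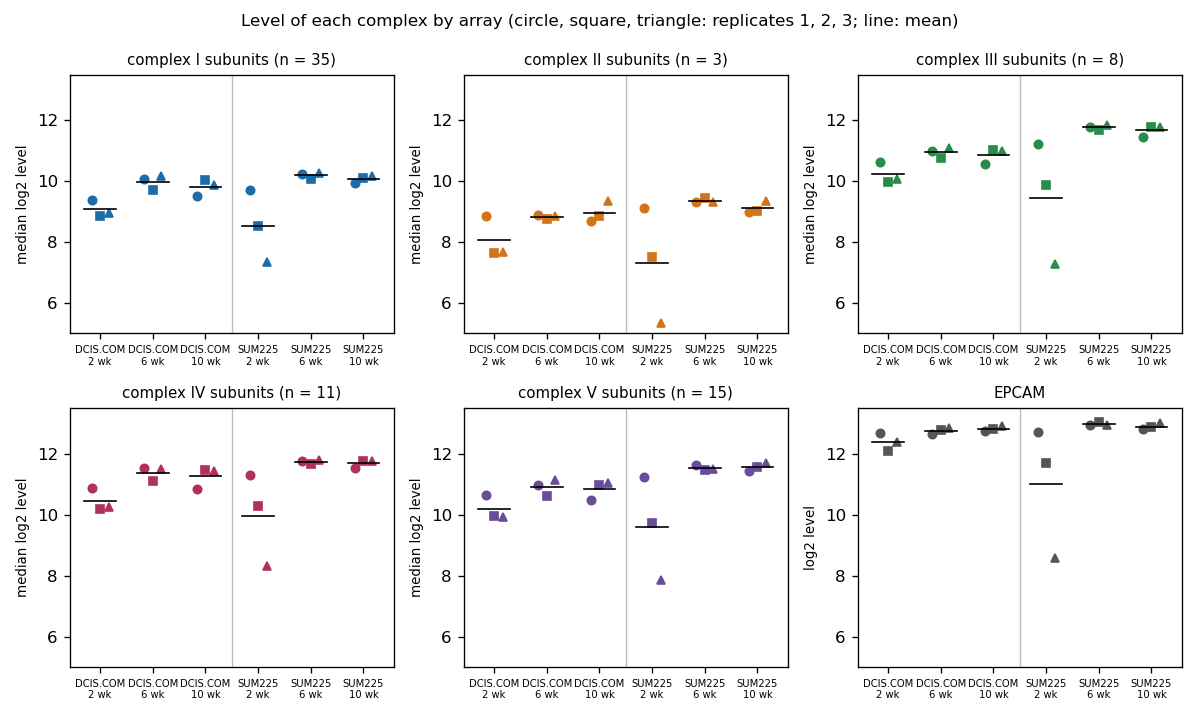
Median log2 level of the subunits of each complex, and the log2 level of EPCAM, on every array by line and week, with replicates 1, 2 and 3 as circle, square and triangle and their mean as a line. The 2-week SUM225 replicates spread from 11.23 to 7.27 in complex III, and EPCAM is likewise highest in replicate 1 (12.73) and lowest in replicate 3 (8.59).

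In complex I, the NADH dehydrogenase, 26 of 35 subunits rose and 1 fell. Among the accessory subunits 22 of 28 rose, with a median of 0.91, and among the catalytic core subunits 4 of 7, with a median of 0.47. The difference between these classes was not tested. NDUFB5, an accessory subunit of the membrane arm, was 9.93, 8.61 and 8.97 at 2 weeks and 10.36, 10.24 and 10.93 at 6 weeks. Its groups did not overlap, and the rise was 1.34 ± 0.32 (SE, limma adjusted p = 0.019), or 2.53-fold. NDUFA8, another accessory subunit, went from 8.34, 8.09 and 8.13 to 9.60, 9.11 and 9.71, a rise of 1.29 ± 0.18 (adjusted p = 0.0045). NDUFS1, the large iron-sulfur subunit of the core, went from 8.45, 7.31 and 7.28 to 8.51, 8.64 and 8.80. It rose by 0.97 ± 0.29 (adjusted p = 0.034), with its highest 2-week array just below its lowest 6-week array. NDUFV1, which carries the flavin that accepts electrons from NADH, differed by 0.37 (adjusted p = 0.062). NDUFA10 is the subunit that fell, by 0.53 (adjusted p = 0.023). A second probe set of NDUFA10 rose by 0.70 (adjusted p = 0.016), so that this gene has no settled direction.

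In complex II, succinate dehydrogenase, the membrane anchor SDHD had the largest change. It was 8.85, 8.19 and 8.39 at 2 weeks and 9.51, 9.51 and 10.02 at 6 weeks, and rose by 1.20 ± 0.21 (adjusted p = 0.0083). The other anchor, SDHC, was 8.94, 7.66 and 7.67 and then 8.88, 8.75 and 8.86, and its difference of 0.74 ± 0.31 did not pass (adjusted p = 0.089). The iron-sulfur subunit SDHB was 8.39, 7.39 and 7.49 and then 8.11, 8.10 and 8.45, with a difference of 0.46 ± 0.26 (adjusted p = 0.17). In both genes replicate 1 of 2 weeks lay within or above the range of 6 weeks.

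In complex III, the cytochrome bc1 complex, 6 of 8 subunits rose. The small subunit UQCR10 was 9.66, 9.06 and 8.75 at 2 weeks and 10.36, 10.04 and 10.44 at 6 weeks, and rose by 1.12 ± 0.23 (adjusted p = 0.012). UQCRC2, a core protein on the matrix side, rose by 0.89 ± 0.19 (adjusted p = 0.014). UQCRFS1, the Rieske iron-sulfur protein that takes electrons from ubiquinol, was 11.95, 10.95 and 10.75 at 2 weeks and 11.29, 11.06 and 11.40 at 6 weeks. Its groups overlapped and the difference was 0.03 ± 0.29 (adjusted p = 0.93). UQCRB differed by 0.39 (adjusted p = 0.10).

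In complex IV, cytochrome c oxidase, 8 of 11 subunits rose. COX5B, a zinc-binding subunit on the matrix side, was 10.85, 10.14 and 10.26 at 2 weeks and 11.54, 11.24 and 11.66 at 6 weeks. This was a rise of 1.07 ± 0.21 (adjusted p = 0.011), with no overlap. COX7B rose by 1.04 ± 0.19 (adjusted p = 0.0091) and COX7A2 by 0.86 ± 0.19 (adjusted p = 0.014). COX4I1, the regulatory subunit that binds ATP, was 12.24, 11.35 and 11.40 and then 12.25, 11.99 and 12.29, and did not pass (0.51 ± 0.24, adjusted p = 0.12). COX6A1 rose by 0.98 on its brightest probe set (adjusted p = 0.027) and fell by 2.08 on another named probe set (adjusted p = 0.0086). The direction of COX6A1 is therefore not settled. NDUFA4, first assigned to complex I and now counted with complex IV, differed by 0.73 (adjusted p = 0.059).

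In complex V 8 of 15 subunits rose and 1 fell. ATP5F1, a subunit of the stalk that holds the catalytic head, was 11.05, 10.38 and 10.68 at 2 weeks and 11.69, 11.55 and 11.99 at 6 weeks, and rose by 1.04 ± 0.20 (adjusted p = 0.010). ATP5J2, of the membrane part, rose by 1.10 ± 0.26 (adjusted p = 0.019), and a dimmer probe set of ATP5J2 fell by 0.50 (adjusted p = 0.035). Of the catalytic head, the beta subunit ATP5B rose by 0.72 ± 0.17 (adjusted p = 0.017), and the alpha subunit ATP5A1 differed by 0.43 ± 0.16 (adjusted p = 0.062). The 3 genes ATP5G1, ATP5G2 and ATP5G3 encode the same mature ring subunit that rotates with proton flow. ATP5G3 was 12.32, 12.50 and 12.19 at 2 weeks and 11.87, 11.93 and 11.71 at 6 weeks, a fall of 0.50 ± 0.15 (adjusted p = 0.032). ATP5G1 and ATP5G2 differed upward, by 0.33 and 0.44, without passing (adjusted p = 0.10 and 0.11). A second probe set of ATP5G3 differed by 0.03 (adjusted p = 0.90).

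**Figure D2:**
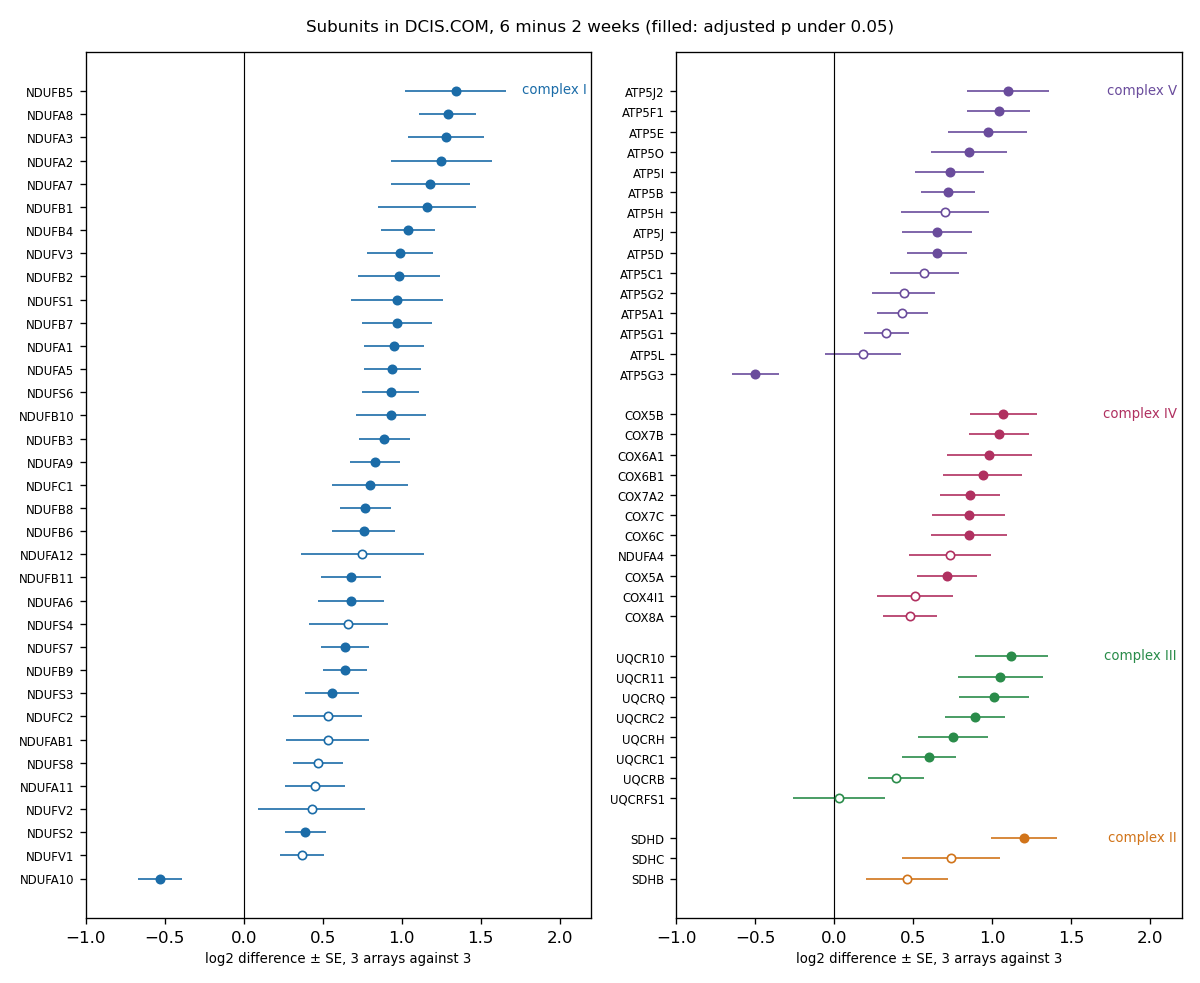
Log2 difference of each of the 72 subunits between 6 and 2 weeks in DCIS.COM, with its standard error from 3 arrays against 3, by complex, and with filled points past adjusted p 0.05. Points lie from -0.53 (NDUFA10) to 1.34 (NDUFB5), and 70 of 72 lie above 0.

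The 7 assembly factors help build the complexes without staying in them, except COX7A2L, which is a supercomplex factor. Of the 7, 2 rose (28.6%), near the 22.6% of all named genes that rose. NDUFAF3, an early complex I assembly factor, had the largest difference among all members. It was 7.55, 6.54 and 6.57 at 2 weeks and 8.33, 8.08 and 8.50 at 6 weeks, and rose by 1.42 ± 0.27 (adjusted p = 0.0094). Of the 7 tissue isoforms and paralogs none rose and 2 fell (28.6%), where 20% of all named genes fell. COX6A2, the heart and skeletal muscle form of COX6A, was 6.57, 7.04 and 6.94 and then 6.16, 6.02 and 5.83, a fall of 0.84 ± 0.17 (adjusted p = 0.012). COX7A1, the muscle form of COX7A, fell by 0.56 ± 0.15 (adjusted p = 0.027). All 7 isoforms differed downward, by a median of 0.33. Their values were low on every array (2.66 to 7.82), and the median level of all probe sets on an array was also lower, from between 5.56 and 5.67 on the 2-week arrays to between 5.42 and 5.48 on the 6-week arrays. Of 7 skeletal muscle markers 2 fell and none rose in the same comparison, again near the share of all named genes. The part of these markers in the fall of the muscle isoforms was not tested.

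**Figure D3:**
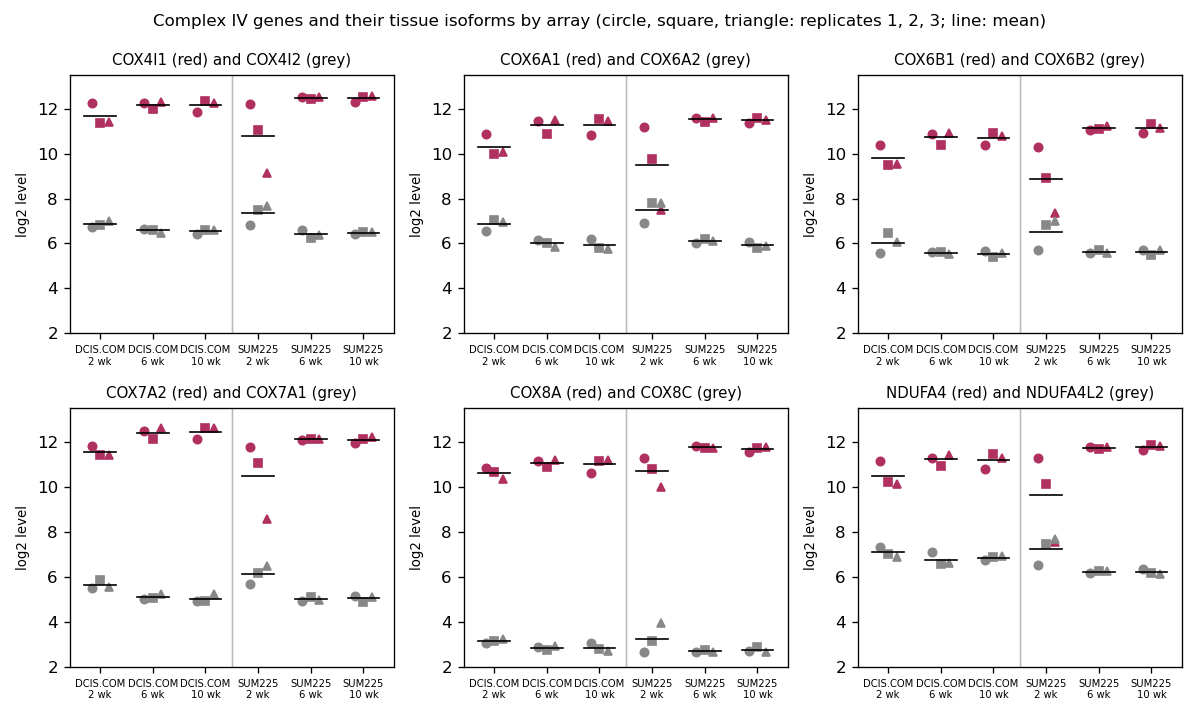
Log2 level on every array of 6 widely expressed complex IV genes (red) and of their tissue isoforms or paralogs (grey), by line and week, with the mean as a line. Levels of different probe sets are not comparable with each other. Among the 2-week SUM225 samples the red symbols are lowest in replicate 3, while the grey ones are lowest in replicate 1.

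Other mitochondrial gene groups also rose in the same comparison. Of 74 mitochondrial ribosomal protein genes 49 rose and 2 fell, with a median of 0.68. Of 25 assembly factors outside the symbols of the set 19 rose, of 16 genes of the tricarboxylic acid cycle and pyruvate dehydrogenase 11, and of 12 electron carriers and exchangers 7. Cytochrome c (CYCS) rose by 0.54 (adjusted p = 0.039), cytochrome c1 (CYC1) by 0.73 (adjusted p = 0.023) and the outer membrane channel VDAC1 by 1.01 (adjusted p = 0.0060). ATPIF1, the inhibitor of ATP synthase, rose by 0.83 (adjusted p = 0.017). Of 105 cytosolic ribosomal protein genes 9 rose and 4 fell, with a median of 0.20, and of 37 proteasome subunits 5 rose and 5 fell, with a median of 0.21. Among the 1029 named genes with a mean of at least 10, which include 45 of the subunits, 31.8% rose and the median was 0.38. The subunits with a mean of at least 10 and those below it had like shares, 68.9% and 66.7%. No test of one list against another was made.

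**Figure D4:**
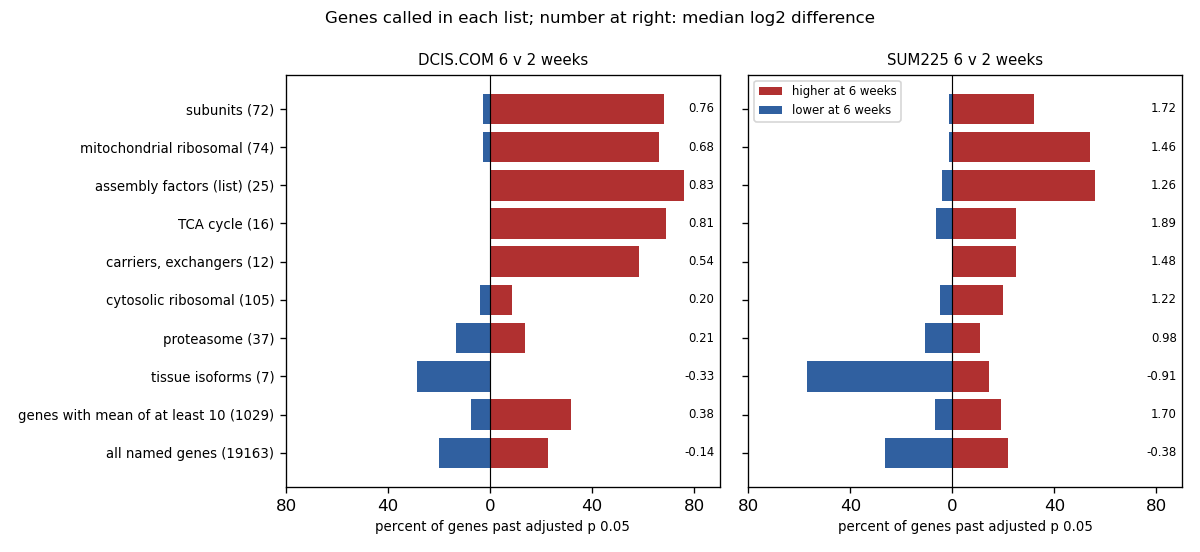
Percent of genes past adjusted p 0.05 in each list that were higher (red, to the right) or lower (blue, to the left) at 6 than at 2 weeks, for DCIS.COM and SUM225, with the number of genes in brackets and the median log2 difference at the right edge. In DCIS.COM the subunits stand at 68.1% higher against 22.6% of all named genes, and in SUM225 at 31.9% against 21.7%.

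Of 12 regulators of mitochondrial genes, 4 rose and 1 fell in DCIS.COM, where 22.6% of all named genes rose and 20% fell. PPARGC1A, which encodes PGC-1α, was 7.90, 7.17 and 7.08 at 2 weeks and 8.25, 9.28 and 8.81 at 6 weeks, and rose by 1.40 ± 0.29 (adjusted p = 0.013). TFAM, which packages and transcribes mitochondrial DNA, rose by 0.93 (adjusted p = 0.018), TFB1M by 1.08 (adjusted p = 0.0043) and GABPB1 by 0.82 (adjusted p = 0.024). YY1 fell by 0.98 (adjusted p = 0.011). NRF1 itself differed by 0.38 (adjusted p = 0.10) and PPARGC1B by -0.30 (adjusted p = 0.25).

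Because the subunits moved together, their promoters were searched for the motifs of these factors, with sequences from RefSeq (GRCh38.p14) from 250 bases before to 50 after the start. The table held promoters of 61 of the 72 subunits. The NRF1 motif, GCGC and TGCGC with any base (N) between, on either strand, stood in 14 of them (23.0%) and in 6.98% of all 27305 genes with a promoter. The ETS motif CCGGAAGT stood in 10 (16.4%) and in 4.95% of all genes. Neither motif contains the other, and a match says only that the letters are there. Of the 14 subunits with the NRF1 motif 10 rose in DCIS.COM, with a median of 0.84, and of the 47 without it 32 rose, with a median of 0.77. With the ETS motif 7 of 10 rose, and without it 35 of 51. The stretches around the NRF1 motif are shown for SDHD, NDUFA9 and UQCRC1, which rose in DCIS.COM, and for UQCRFS1, which did not pass, because together they show the motif beside both outcomes. The motif is in capitals.
SDHD (chr11:112086733-112086802, + strand): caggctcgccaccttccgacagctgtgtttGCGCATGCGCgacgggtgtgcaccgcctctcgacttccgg
NDUFA9 (chr12:4649004-4649073, + strand): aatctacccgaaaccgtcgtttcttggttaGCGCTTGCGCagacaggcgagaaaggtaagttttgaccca
UQCRC1 (chr3:48609654-48609723, - strand): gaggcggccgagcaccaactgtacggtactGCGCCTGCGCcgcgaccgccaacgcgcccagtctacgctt
UQCRFS1 (chr19:29213152-29213212, - strand): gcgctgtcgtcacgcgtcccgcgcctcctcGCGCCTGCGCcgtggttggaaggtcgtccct
The motif thus stood before the start of a subunit that rose by 1.20 (SDHD) and of one whose difference was 0.03 (UQCRFS1). The promoter of SDHD also held the ETS motif.

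In SUM225 xenografts the median difference of the subunits between weeks 2 and 6 was larger, fewer subunits passed, and the 2-week arrays were spread more widely. Of 72 subunits 23 (31.9%) rose and 1 fell, with a median difference of 1.72, and over all members 29 rose and 5 fell. Of all named genes 21.7% rose and 26.5% fell. The 1029 genes with a mean of at least 10 had a median of 1.70, close to that of the subunits. The arrays of 2 and 6 weeks did not overlap in 64 subunits that were higher, where 33.2% of all named genes had this pattern upward. The subunit median was 10.35, 9.20 and 7.48 on the 2-week arrays, 11.02, 10.92 and 11.06 on the 6-week arrays, and 10.77, 11.02 and 11.0 on the 10-week arrays. Of the other lists, 40 of 74 mitochondrial ribosomal protein genes rose (median 1.46), 21 of 105 cytosolic ribosomal protein genes (median 1.22) and 4 of 37 proteasome subunits (median 0.98). Within the 2-week group it was lowest where EPCAM was lowest and the leukocyte median highest, and the part of this in the result was not tested.

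The count in SUM225 rested on single arrays. Without replicate 1 of 2 weeks 68 subunits rose, with a median of 2.36, and without replicate 2 or replicate 3 of 2 weeks, or any single array of 6 weeks, 0 did by limma. Calls over all 54613 probe sets moved likewise, from 21176 with all arrays to 42337 without replicate 1 of 2 weeks. They were 0 to 26 without any other single array, so that the swing was not particular to the subunits. In each of these runs 70 of 72 subunits lay above 0. When replicate 1 alone stood for 2 weeks, its EPCAM being within the range of the other groups, 22 subunits rose and the median was 0.44, with 66 of 72 above 0. In that run the single sample is assumed to vary like those of 6 weeks.

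By complex, the rises in SUM225 were 16 of 35 in complex I (median 1.5), 1 of 3 in complex II (2.09), 1 of 8 in complex III (2.03), 3 of 11 in complex IV (1.90) and 2 of 15 in complex V (1.57). Only 1 of the 7 core subunits of complex I rose, against 15 of its 28 accessory subunits, a difference that was not tested. NDUFB5 was 10.29, 8.61 and 6.29 at 2 weeks and 11.21, 11.01 and 11.26 at 6 weeks, a rise of 2.76 ± 0.86 (adjusted p = 0.044). COX6B1, a subunit on the intermembrane side of complex IV, was 10.31, 8.93 and 7.34 and then 11.06, 11.11 and 11.22, a rise of 2.27 ± 0.65 (adjusted p = 0.040). In both, nearly all of the spread lay among the 2-week arrays. NDUFA8 was 8.41, 7.63 and 7.74 and then 9.32, 9.09 and 9.38, with a rise of 1.33 ± 0.26 (adjusted p = 0.038). Its replicate 1 was the highest at 2 weeks, as for EPCAM, and its replicates 2 and 3 lay close together. UQCR11 rose by 1.96 ± 0.65 (adjusted p = 0.048) and the assembly factor NDUFAF3 by 1.51 ± 0.38 (adjusted p = 0.038). NDUFA5, an accessory subunit of complex I, had the largest difference, 3.10 ± 1.10, and did not pass (adjusted p = 0.054). Its 2-week arrays were 9.97, 7.38 and 4.82. ATP5H, of the peripheral stalk of complex V, was 8.75, 7.81 and 6.42 and then 9.24, 9.18 and 9.27, and rose by 1.57 ± 0.52 (adjusted p = 0.049). COX7A2L, which joins complexes III and IV into supercomplexes, rose by 2.05 ± 0.66 (adjusted p = 0.046).

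Of the 7 isoforms, COX4I2, COX6A2, COX7A1 and NDUFA4L2 fell and COX7B2 rose, where 26.5% of all named genes fell and 21.7% rose. COX6A2 was 6.90, 7.82 and 7.79 at 2 weeks and 6.02, 6.20 and 6.11 at 6 weeks, a fall of 1.39 ± 0.29 (adjusted p = 0.038). NDUFA4L2, a paralog of NDUFA4 known as a hypoxia-induced gene, was 6.54, 7.47 and 7.68 and then 6.17, 6.26 and 6.29, a fall of 0.99 ± 0.32 (adjusted p = 0.045). These 2-week values were higher in replicates 2 and 3 than in replicate 1, opposite to the subunits. The median of all probe sets had the same order, 5.61, 5.76 and 5.84 at 2 weeks, and was 5.45, 5.51 and 5.48 at 6 weeks. COX6B2 and COX8C, a pair of testis isoforms, did not pass in either line. COX7B2, a paralog of COX7B, was 4.77, 4.25 and 4.34 and then 5.25, 5.09 and 5.03, a rise of 0.67 ± 0.22 (adjusted p = 0.048). Each of these values lay below the median of all probe sets on its array.

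The 6-week changes in both lines had 19 members in common that rose, which is 35.8% of the 53 in DCIS.COM and 65.5% of the 29 in SUM225. Of all named genes 12.6% rose in both lines, which is 56% of those that rose in DCIS.COM and 58.2% of those in SUM225. Of these, 17 are subunits, all of complex I but COX5B, COX6B1 and UQCR11. COX6A2 and COX7A1 fell in both, as did NDUFA10 on its brightest probe set, while another probe set of NDUFA10 rose in both. Across the 72 subunits the changes in the lines had a Pearson correlation of 0.67 and a Spearman correlation of 0.55. The lines share no arrays, but the points share the platform, the normalization and their brightness. The difference between the lines in this change was tested as an interaction, and 0 of 91 members passed, where 0.699% and 0.537% of all named genes did in either direction. The median interaction of the subunits was 0.97, toward the larger change in SUM225. At an unadjusted p under 0.05 2 members had a larger change in SUM225 and 0 a smaller one. Without replicate 1 of the 2-week SUM225 samples 56 members passed upward and 6 downward, with a subunit median of 1.61. In that run 23716 of all 54613 probe sets passed, against 459 with all arrays. With replicate 1 alone for the 2-week SUM225 samples the subunit median was -0.32. The direction of the difference between the lines in this change is therefore not settled.

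Between 6 and 10 weeks 0 of 91 members passed by limma in either line. In DCIS.COM 0.0157% of all named genes rose and 0% fell, and in SUM225 0% rose and 0.00522% fell. The median difference of the subunits was -0.06 in both lines. At an unadjusted p under 0.05, 0 members were higher and 1 was lower in DCIS.COM, and 0 in either direction in SUM225. Individual differences of the subunits lay between -0.32 and 0.14 in DCIS.COM and between -0.24 and 0.12 in SUM225. UQCRC1, a core protein of complex III, was 10.88, 10.81 and 10.89 at 6 weeks and 10.58, 10.62 and 10.59 at 10 weeks in DCIS.COM, without overlap but without passing (-0.27 ± 0.12, adjusted p = 1.0).

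Between 2 and 10 weeks 38 members rose and 4 fell in DCIS.COM (21.1% and 15.9% of all named genes), and 32 rose and 6 fell in SUM225 (25.1% and 33.6%). These comparisons share the 2-week arrays with those above. The subunit medians were 0.74 and 1.67. NDUFB5 was 10.15, 10.70 and 10.31 at 10 weeks in DCIS.COM and 10.88, 11.20 and 11.33 in SUM225, above every 2-week array of its line. In DCIS.COM 71 members rose without replicate 1 of 2 weeks, 5 without its replicate 2, and 1 without its replicate 3 or without replicate 2 or 3 of 10 weeks. In SUM225 79 rose without replicate 1 of 2 weeks, 7 without its replicate 3, and 0 without its replicate 2 or any 10-week array. Calls over all 54613 probe sets moved likewise. In DCIS.COM they were 15205 with all arrays, 24624 without replicate 1 of 2 weeks and 2094 to 3089 in the other runs named. In SUM225 they were 26648 with all arrays and 42686 without replicate 1 of 2 weeks. Without its replicate 3 they were 10649, and in the remaining runs 1 to 932.

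Between the lines at 6 weeks, where all 6 arrays had EPCAM between 12.66 and 13.04, 37 members were higher and 3 lower in SUM225 than in DCIS.COM. Of all named genes 19.7% were higher and 17.2% lower. Among the 72 subunits 32 were higher and 2 lower, with a median of 0.34 and a middle range of -0.02 to 0.66. Without any 1 of the 6 arrays 27 to 34 subunits were higher and 1 to 6 lower. With all 18 arrays in 1 fit only 1 subunit passed. Cytosolic ribosomal protein genes went the other way, with 8 of 105 higher and 32 lower. Of 37 proteasome subunits 11 were higher and 4 lower. Among named genes with a mean of at least 10, 29.4% were higher and 26.1% lower. Mean array medians were 8.6 in DCIS.COM and 8.87 in SUM225 for mitochondrial ribosomal protein genes. They were 9.53 and 10.24 for the tricarboxylic acid cycle list, and 11.2 and 11.06 for carriers and exchangers. A higher level in SUM225 was thus not particular to the subunits.

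Complex III stood highest of the complexes by median (0.77), and 6 of its 8 subunits were higher in SUM225. UQCR10 was 10.36, 10.04 and 10.44 in DCIS.COM and 11.80, 11.62 and 11.90 in SUM225, a difference of 1.49 ± 0.14 (adjusted p = 3.1e-05), or 2.81-fold. UQCRFS1, which did not pass over time in DCIS.COM, was 11.29, 11.06 and 11.40 against 12.75, 12.40 and 12.43, a difference of 1.28 ± 0.14 (adjusted p = 9.2e-05). UQCRB differed by 1.03 ± 0.13 (adjusted p = 0.00022). UQCRC1 and UQCR11 differed by 0.02 and 0.01, with standard errors of 0.11 and 0.19. CYC1, the cytochrome c1 of the same complex that the symbol rule leaves out, was higher by 1.44 ± 0.12 (adjusted p = 1.5e-05). Within complex III the difference between the lines thus ran from 0.01 to 1.49.

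In complex I 16 of 35 subunits were higher and none lower. NDUFAB1, the mitochondrial acyl carrier protein, was 10.77, 10.51 and 10.93 in DCIS.COM and 12.29, 12.06 and 12.30 in SUM225, a difference of 1.49 ± 0.14 (adjusted p = 2.8e-05). NDUFV2, a core subunit of the NADH-oxidizing part, differed by 1.11 ± 0.17 (adjusted p = 0.00083) and NDUFB9 by 1.0 ± 0.13 (adjusted p = 0.00027). SDHB of complex II was 8.11, 8.10 and 8.45 against 9.31, 8.84 and 9.03, a difference of 0.84 ± 0.15 (adjusted p = 0.0022). SDHC and SDHD differed by 0.40 (adjusted p = 0.056) and 0.21 (adjusted p = 0.40).

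In complex IV 4 subunits were higher and 1 lower. COX6C was 10.61, 10.27 and 10.82 in DCIS.COM and 11.93, 11.86 and 12.01 in SUM225 (1.37 ± 0.15, adjusted p = 7.8e-05). COX5A, on the matrix side, was 11.97, 11.88 and 11.99 against 11.46, 11.40 and 11.34, lower in SUM225 by 0.55 ± 0.10 (adjusted p = 0.0027). The isoform COX7B2 was 3.45, 3.80 and 3.53 against 5.25, 5.09 and 5.03 (1.53 ± 0.13, adjusted p = 1.5e-05), and NDUFA4L2 was lower in SUM225 (-0.53 ± 0.15, adjusted p = 0.021). The COX7B2 values all lay below the median of all probe sets on these arrays (5.42 to 5.51), so that its level is low in both lines. In complex V, ATP5E, the epsilon subunit of the rotor stalk, was 10.99, 10.59 and 11.15 against 12.07, 12.07 and 12.15 (1.19 ± 0.15, adjusted p = 0.00021). A dim second probe set of ATP5E differed by -2.44 (adjusted p = 1.5e-05). COX8A was higher in SUM225 by 0.68 ± 0.12 (adjusted p = 0.0017). ATP5G1 was lower in SUM225 by 0.36 (adjusted p = 0.043), and ATP5B and ATP5A1 differed by -0.08 and -0.19 without passing. Of the regulators, PPARGC1A was lower in SUM225 by 2.14 ± 0.22 (adjusted p = 6.5e-05) and TFAM higher by 0.73 ± 0.14 (adjusted p = 0.0033).

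**Figure D5:**
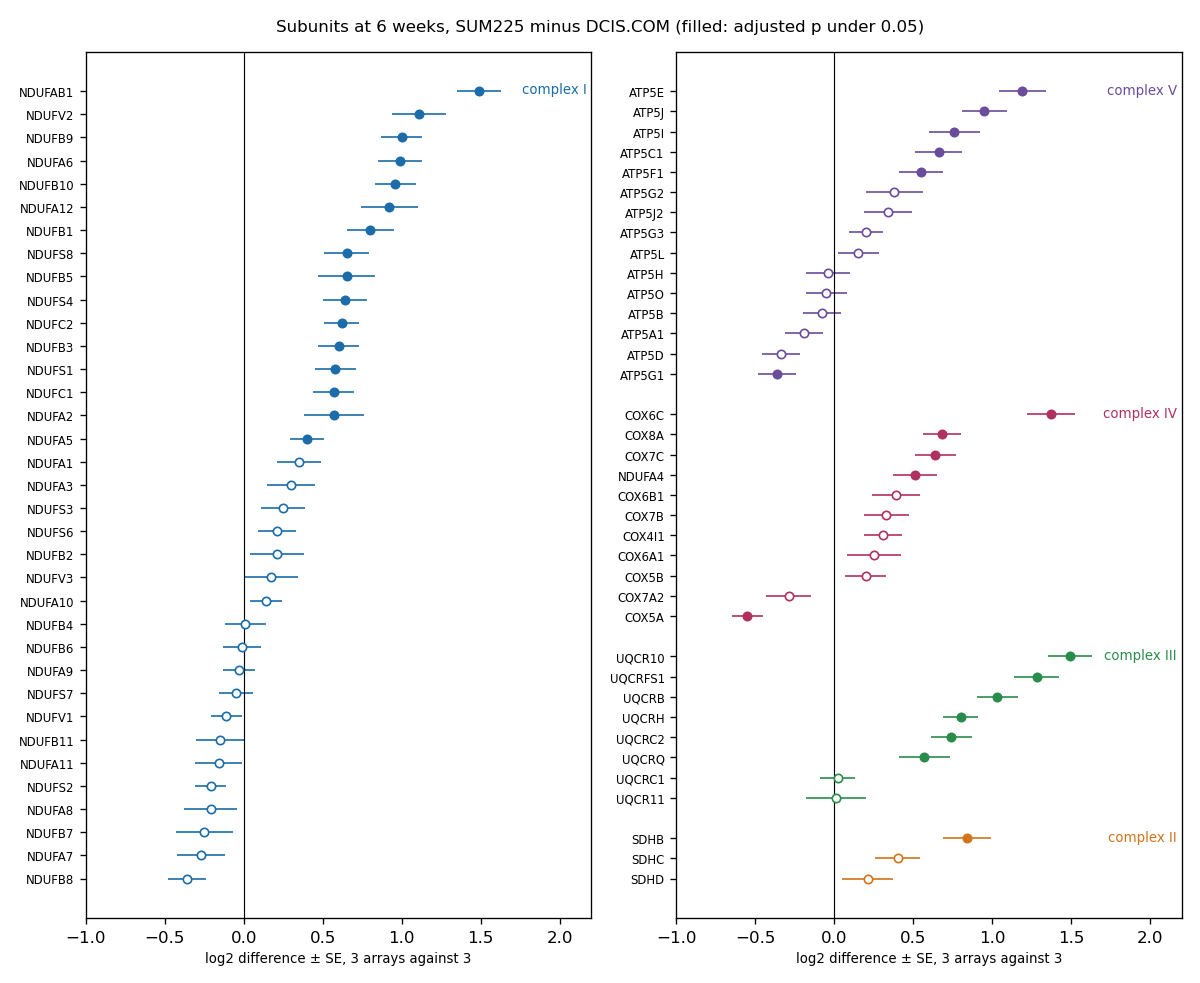
Log2 difference of each of the 72 subunits between SUM225 and DCIS.COM at 6 weeks, with its standard error from 3 arrays against 3, by complex, and with filled points past adjusted p 0.05. Points lie from -0.55 (COX5A) to 1.49 (NDUFAB1 and UQCR10), and 53 of 72 lie above 0.

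The subunits that differed between the lines were read against the share of all genes on the same chromosome, from the RefSeq annotation of GRCh38.p14. On chromosome 16, 44.1% of 640 named genes were higher in SUM225 at 6 weeks and 5.94% lower, and 3 of its 4 subunits were higher, NDUFAB1, UQCRC2 and NDUFB10. On chromosome 22, 30.5% of genes were higher and 10.3% lower, and both of its subunits were higher, UQCR10 and NDUFA6. On chromosome 8, 27.5% of genes were higher and 20.8% lower, with a median of 0.03, and all 3 subunits were higher, COX6C, NDUFB9 and UQCRB. Some subunits were also higher where more genes of the chromosome were lower than higher. Examples were 2 of 2 on chromosome 4 (20.3% of genes higher, 24.6% lower), 3 of 5 on chromosome 1 (16.2% and 22.1%) and 2 of 5 on chromosome 2 (13.3% and 28.2%). Others were not, with 0 of 2 higher on chromosome 9 (12.8% and 25.1%) and 0 of 2 on chromosome 17 (13.4% and 21.1%). On chromosome 19, which had the most subunits, 1 of 9 was higher (18.3% and 11.7%). COX5A, lower in SUM225, is on chromosome 15, where 33.3% of genes were lower and 15.2% higher. NDUFV2 was higher and is on chromosome 18, where 37.2% of genes were lower and 5.96% higher. No copy number was measured on these samples, and its part in the differences was not tested.

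At 10 weeks 32 members were higher and 5 lower in SUM225 (16.4% and 15.9% of all named genes), and 31 were higher at both times, which is 83.8% of those at 6 and 96.9% of those at 10 weeks. Of all named genes 14.9% were higher at both times, which is 75.7% of those at 6 and 91.3% of those at 10 weeks. UQCR10 was 9.76, 10.22 and 10.30 against 11.45, 11.87 and 11.71 (1.58 ± 0.18, adjusted p = 0.00016), and NDUFAB1 and UQCRFS1 differed by 1.53 and 1.25. COX5A was again lower in SUM225, by 0.58 ± 0.13 (adjusted p = 0.0070). Without replicate 3 of the 10-week SUM225 samples 18 members were higher, and without its replicate 2 21 were. Calls over all probe sets in these runs were 10756 and 10773, against 14348 with all arrays. At 2 weeks 0 members passed, where 0.0783% of all named genes were higher and 2.36% lower, and the subunit median was -0.47. With replicate 1 alone for the 2-week SUM225 samples the median was 0.77, with 66 of 72 above 0 and 4 subunits passing. Without that replicate, 1 subunit was higher, 21 were lower and the median was -1.18, so that the direction between the lines at 2 weeks turned on single arrays. In that run 19050 of all 54613 probe sets were called, against 871 with all arrays.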

How the data were processed

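The authors normalized the 18 Affymetrix HG-U133 Plus 2.0 arrays by RMA and deposited log2 values of 54675 probe sets. Versions and the genome build are not given in the sources used here. After 62 control probe sets were left out, 54613 were tested. Gene symbols came from the deposited tables of probe sets that the authors called with SAM (significance analysis of microarrays) between 6 and 2 weeks in each line. In these tables the fold change (a ratio for DCIS.COM, a signed score for SUM225) and the q-value in percent, which the authors computed, were not used. A single symbol was given for 36823 probe sets, several for 866 and no usable name for 15, and 16909 stood in neither table. Tables of Wnt pathway probe sets were not used.

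Groups came from the labels. Per comparison, limma 3.58.1 (lmFit and eBayes, R 4.3.3) was fitted on the 6 arrays compared, or on 12 for the interaction, with Benjamini-Hochberg adjustment over all probe sets and a threshold of 0.05. The authors' own test was SAM, and a version of SAM written anew served here as an alternative. It called 11221 probe sets higher and 25151 lower at 6 than at 2 weeks in DCIS.COM. In SUM225 it called 16534 and 27306. Each count is larger than the one the paper reports. The replicates are separate pools of mice. The precision is limited by the 3 arrays per group and by the spread between them, which was widest in the 2-week SUM225 samples. The code was tested on simulated data. The alternatives were centring each array on its median, a minimum mean of 5, all 18 arrays in 1 fit, the replicate number as a block, each array left out, every named probe set and replicate 1 alone for the 2-week SUM225 samples.

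The members and lists were chosen with earlier results of these data known. Genes were named by their place in complex II, as paralogs, or as the largest change of a complex, tissue isoforms included, among those past the threshold without overlap. ATP5B, ATP5F1, COX6C, COX7B, NDUFA5, NDUFA6, NDUFA8, NDUFA9, NDUFB10, NDUFS1, NDUFV1, NDUFV2, UQCRB, UQCRC1 and UQCRC2 were named after their values were seen, and the motifs were chosen then too. All 91 members matched RefSeq, 71 under the same symbol. Promoters came from RefSeq (GRCh38.p14).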

Additional observations from a re-analysis of the deposited data

How the results depend on the processing

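Of all genes named by the rule, those that passed in a comparison were followed there. They were 17 in DCIS.COM and 16 in SUM225 at 6 against 2 weeks, and 13 and 14 between the lines at 6 and 10 weeks. They were picked for passing in the same data, which favours an unchanged direction. None of these changed direction on its brightest probe set under centring, the minimum mean, the single fit, the block or the loss of 1 array, nor in SUM225 with replicate 1 alone for 2 weeks. On the loss of 1 array, 53 of 102 of their values in DCIS.COM, 80 of 96 in SUM225, and 12 of 78 and 21 of 84 between the lines no longer passed. Other genes named were not followed in this way. A dimmer probe set opposed the brightest in DCIS.COM for ATP5J2, ATP5O, COX6A1, NDUFA10, NDUFA11 and NDUFS7, in SUM225 for ATP5G2, NDUFA10 and NDUFA7, and between the lines at 6 weeks for ATP5E and ATP5S. Counts of members higher and lower moved as follows. With all 18 arrays in 1 fit, 8 were higher and 2 lower at 6 against 2 weeks in DCIS.COM, 8 were higher at 10 against 2 weeks, 81 were higher and 8 lower at 6 against 2 weeks in SUM225, and 79 were higher at 10 against 2 weeks. In that fit the lines differed in 3 higher and 6 lower at 2 weeks, 3 and 0 at 6 weeks and 5 and 1 at 10 weeks. With each array centred on its median, 1 was lower in DCIS.COM at 6 and 1 at 10 against 2 weeks, 15 were higher and 2 lower in SUM225 at 6 against 2 weeks, 3 were lower there at 10 against 2 weeks, and 3 were lower in SUM225 than in DCIS.COM at 10 weeks. At 6 against 2 weeks SAM called 8 lower in DCIS.COM, whereas in SUM225 it called 83 higher and 8 lower. Over every named probe set of the members, the higher and lower counts were 82 and 10 in DCIS.COM and 51 and 13 in SUM225 at 6 against 2 weeks, 53 higher and 15 lower in SUM225 and 9 lower in DCIS.COM at 10 against 2 weeks, and, between the lines, 2 lower at 2 weeks, 59 and 8 at 6 weeks and 51 and 9 at 10 weeks. With replicate 1 alone for the 2-week SUM225 samples, 2 were lower at 6 weeks, 12 were higher and 3 lower at 10 weeks, and 4 were higher than in DCIS.COM at 2 weeks. The use of that replicate alone against DCIS.COM was chosen after seeing the data.

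The main fits did not pair samples by replicate number, since no pair of groups had all 3 correlations of deviations over 0.1. With 3 replicates this check cannot settle whether replicates of the same number share an effect. Between the lines at 2 weeks the correlations were 0.632, 0.377 and 0.048 for replicates 1, 2 and 3. With the replicate number as a block, 7 members were higher and 1 lower in DCIS.COM at 10 against 2 weeks, 70 were higher in SUM225 at 6 against 2 weeks, 53 were higher and 3 lower there at 10 against 2 weeks, and 1 was lower in SUM225 than in DCIS.COM at 2 weeks. Leaving out 1 array gave 11 to 77 higher and 0 to 5 lower in DCIS.COM at 6 against 2 weeks, 1 to 71 and 0 to 5 at 10 against 2 weeks, 0 to 80 and 0 to 8 in SUM225 at 6 against 2 weeks, and 0 to 79 and 0 to 8 at 10 against 2 weeks. Between the lines it gave 0 to 5 higher and 0 to 24 lower at 2 weeks, 32 to 39 and 1 to 8 at 6 weeks and 18 to 31 and 3 to 12 at 10 weeks, and for the interaction 0 to 56 and 0 to 6. It gave 0 in both directions at 10 against 6 weeks in both lines. Calls over all 54613 probe sets shifted too. At 6 against 2 weeks they ran from 3705 to 29098 in DCIS.COM and from 0 to 42337 in SUM225. The cause of these shifts was not tested.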
